A study of Mus musculus with 12 samples.

Results

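Esam and 8 other genes of cell junctions between endothelial cells are described here in mouse cerebral cortex with and without a Nestin-Cre driven deletion in Nsd1. The 9 genes, Esam, Jam2, F11r, Cldn5, Ocln, Tjp1, Cdh5, Pecam1 and Icam2, were taken by their symbols from a table of 34193 genes, and all 9 passed the filter for testing, which asked for 10 normalised reads or more on average across the 12 libraries. Esam was chosen by its measured values, because its normalised reads differed between the genotypes of these same libraries, and its difference is given as a description, with no test. The other 8 were chosen to ask whether Esam differed alone among junction genes.

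Endothelial cells line the vessels, and in the brain they seal the space between neighbouring cells with tight junctions that form the blood-brain barrier. Claudins and occludin span the membrane and scaffold proteins such as ZO-1 tie them to actin. Junctional adhesion molecules of the immunoglobulin superfamily and the cadherin of adherens junctions hold the cells together, and further immunoglobulin proteins of the endothelial surface take part in the passage of leukocytes. ESAM, the endothelial cell-selective adhesion molecule, belongs to the same immunoglobulin family as the junctional adhesion molecules. It lies at endothelial tight junctions, and it is also known from platelets, megakaryocytes and haematopoietic stem cells.

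The mice were 8 weeks old, and total RNA of the cortex was sequenced after depletion of ribosomal RNA. The 6 controls had the genotype Nsd1 flx/flx with Nestin-cre -/-, and the 6 conditional knockouts (cKO) had Nsd1 flx/flx with Nestin-cre +/-, so that both groups carried the loxP-flanked alleles and differed by the Cre transgene. Nestin-Cre is active in the neural lineage, from which neurons, astrocytes and oligodendrocytes derive, whereas endothelial cells are of mesodermal origin. No animals are named in the labels, which speak of biological replicates, so the p-values cover the spread among these samples, which may be technical in part.

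Between 10.5 M and 27.0 M reads per library were assigned to genes. Values after ± are SDs over the 6 libraries of a genotype. In each genotype, libraries 1 to 3 had a summed value of 4 Y-linked genes above 100 (the Y-high set), and in libraries 4 to 6 it was 0 to 3.09 (the Y-low set). The limma models had a term for these 2 sets. Mitochondrial ribosomal RNA took 14.2% and 11.5% of the reads in control libraries 4 and 5 and 1.46% to 6.00% in the others. Nsd1, counted over the whole gene, was at 4235 ± 850 normalised reads in controls against 3251 ± 299 in cKO, with overlapping groups (limma log2 fold change -0.36, adjusted p = 0.383). A gene was called at a limma adjusted p under 0.05 over the 14397 genes tested, of which 9.73% had an unadjusted p under 0.05. The share called was 0.834% of the genes in either direction and 0.764% as higher in the cKO. The share whose groups of libraries did not overlap was 1.01% in either direction, and every cKO library lay above every control library for 0.813%. The values come from whole tissue, in which fewer cells of a type and less RNA per cell cannot be told apart.

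Esam stood at 243, 223, 225, 186, 194 and 232 normalised reads in control libraries 1 to 6. In cKO libraries 1 to 6 it stood at 541, 505, 593, 531, 446 and 565. The groups did not overlap, and the lowest cKO library held 446 normalised reads against 243 in the highest control. Mean levels were 217 ± 22.1 for controls against 530 ± 50.8 for cKO (SD, n = 6 per genotype). The ratio was 2.44 and the log2 fold change 1.28 (SE 0.09). The authors' deposited table lists Esam at 1.28 on the log2 scale (standard error 0.10). Behind these values lay 99 to 766 reads per library. The log2 fold change was 1.24 in the Y-high set and 1.33 in the Y-low set. It lay between 1.21 and 1.33 under all 24 alternative settings, including the removal of any single library. No exon of Esam shares bases with another gene in the GENCODE annotation, and the same holds for the 8 other genes.

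**Figure D1:**
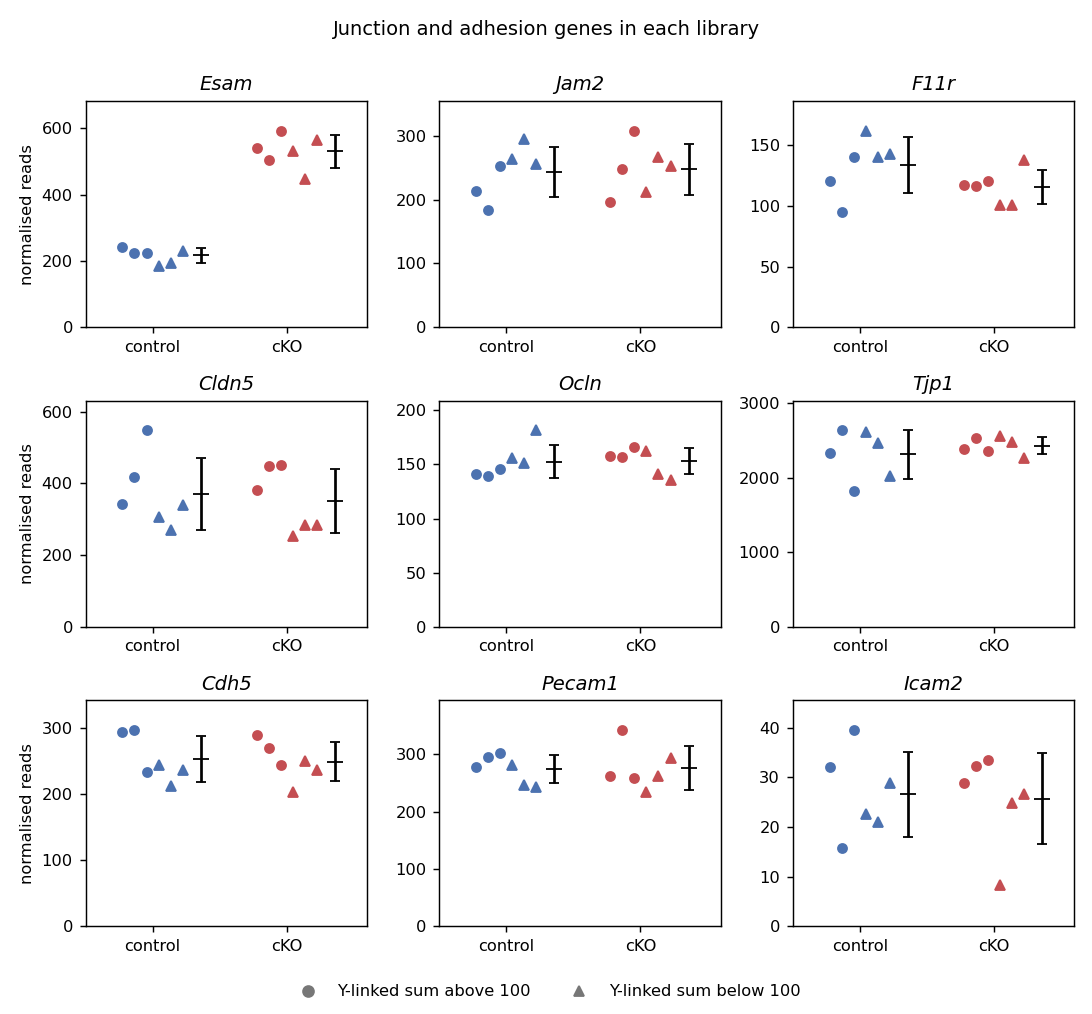
Normalised reads of the 9 genes in each of the 12 libraries, with circles for the Y-high set and triangles for the Y-low set; black marks are means with SD (n = 6 per group). For Esam the cKO libraries, from 446 to 593, all lie above the controls, from 186 to 243, whereas the groups overlap in the 8 other panels.

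None of the 8 other genes was called, by limma, edgeR or DESeq2, where limma called 0.834% of all tested genes. None had an unadjusted limma p under 0.05, against 9.73% of all tested genes. The groups of libraries overlapped for 8 of 8, where 1.01% of all tested genes had groups that did not overlap. At these shares, counts of 0 among 8 genes are not particular to these genes. The mean was higher in the cKO for 4 of 8. Their ratios ran from 0.867 for F11r to 1.05 for Tjp1. The upper ends of their 95% intervals, which are not adjusted for the number of genes, lay between a ratio of 1.06 for F11r and 1.41 for Icam2. These lie below the ratio of 2.44 for Esam, which was chosen for its difference. The absolute log2 fold change of Esam lay at percentile 99.7 of all tested genes, so lying below it is not particular to these 8. The authors' deposited table lists adjusted p between 0.776 and 0.993 for these 8 genes.

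The relatives of ESAM among the members were JAM-B and JAM-A. Jam2, the gene of JAM-B, an adhesion molecule of endothelial junctions that binds JAM-C, had a lowest, median and highest value of 184, 254 and 295 normalised reads in the controls and of 197, 250 and 308 in the cKO. Each range covered most of the other, and the log2 fold change was 0.02 (95% interval -0.24 to 0.29, limma adjusted p = 0.961). F11r, the gene of JAM-A, found in endothelium, epithelium, platelets and leukocytes, had a lowest, median and highest value of 95.1, 140 and 162 in the controls and of 101, 117 and 138 in the cKO. The 4 highest libraries were controls and the lowest was a control too. Its log2 fold change was -0.19 (95% interval -0.46 to 0.08, limma adjusted p = 0.576), the most negative estimate among the 9 genes.

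Among the proteins that span the tight junction, Cldn5, the main claudin of brain endothelium, had a lowest, median and highest value of 270, 341 and 548 normalised reads in the controls. In the cKO the corresponding values were 254, 334 and 452. The spread was wide in both genotypes, with a coefficient of variation of 26.9% in the controls and 25.1% in the cKO, and the log2 fold change was -0.08 (95% interval -0.31 to 0.16, limma adjusted p = 0.792). Ocln, the gene of occludin, had a lowest, median and highest value of 139, 149 and 182 in the controls and of 136, 157 and 166 in the cKO. It varied less, by 10.1% and 7.85%, and its log2 fold change was 0.01 (95% interval -0.20 to 0.22, limma adjusted p = 0.975). Tjp1 encodes the scaffold ZO-1, which is not limited to endothelium and also lies at other cell contacts of the brain. It had a lowest, median and highest value of 1817, 2397 and 2636 normalised reads in the controls and of 2259, 2435 and 2557 in the cKO, so that the cKO range lay inside that of the controls. The log2 fold change was 0.08 (95% interval -0.12 to 0.28, limma adjusted p = 0.737).

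Cdh5, the gene of VE-cadherin, the cadherin of endothelial adherens junctions, had a lowest, median and highest value of 212, 240 and 297 normalised reads in the controls and of 203, 247 and 289 in the cKO. Its log2 fold change was -0.02 (95% interval -0.22 to 0.18, limma adjusted p = 0.940). Pecam1, the gene of CD31, an immunoglobulin protein at endothelial cell contacts, had a lowest, median and highest value of 243, 280 and 302 in the controls and of 235, 262 and 342 in the cKO. The highest and the lowest of the 12 libraries were both cKO, and the log2 fold change was 0.0022 (95% interval -0.20 to 0.20, limma adjusted p = 0.995). Icam2, a ligand of leukocyte integrins on resting endothelium, was the least abundant member, with 15.8, 25.7 and 39.6 normalised reads as the lowest, median and highest value in the controls and 8.30, 27.8 and 33.4 in the cKO. It rested on 7 to 49 reads per library and had the widest interval of the 9 genes (log2 fold change -0.10, SE 0.28, 95% interval -0.70 to 0.50, limma adjusted p = 0.899). In ratio that interval ran from 0.613 to 1.41. Without library cKO 4 the Icam2 log2 fold change was 0.16 with an SE of 0.21.

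**Figure D2:**
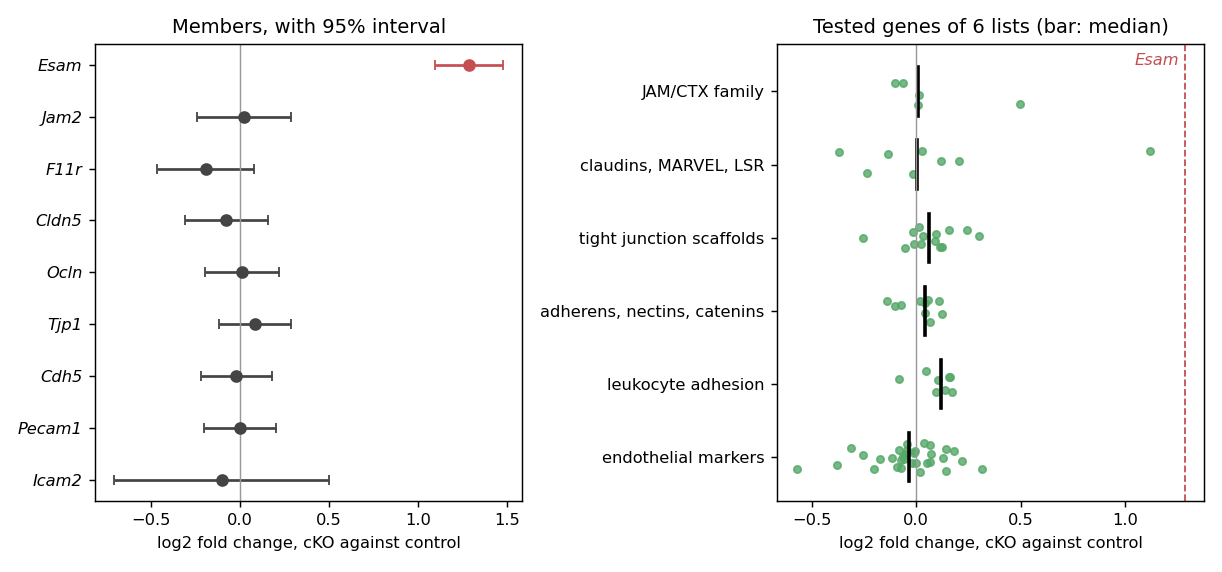
Left, log2 fold change of cKO against control for the 9 genes with 95% intervals from limma (6 libraries per group). Right, log2 fold changes of the tested genes of 6 lists, 1 point per gene with a bar at the median and a dashed line at the value of Esam (1.28); the medians lie between -0.03 and 0.12, and Cldn22, at 1.12, is the point nearest to the line.

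Levels of different genes were compared as normalised reads per kilobase of merged exon. In the controls Tjp1 came first with 296 ± 42.5 and Cldn5 second with 262 ± 70.3 (SD, n = 6), and their ranges over the libraries overlapped. Esam followed with 75.7 ± 7.72 and Cdh5 with 60.1 ± 8.23, again with overlapping ranges (64.9 to 84.6 and 50.6 to 70.6). F11r, Pecam1, Jam2 and Ocln lay between 50.04 and 36.1, each overlapping its neighbours, and Icam2 was lowest with 14.0 ± 4.50. In the cKO the level of Esam was 185 ± 17.7 normalised reads per kilobase. It was still the third of the 9, but its range of 156 to 207 now overlapped that of Cldn5 (179 to 319) and no longer that of Cdh5 (48.3 to 68.8). Merged exons can be longer than the transcript in use, so these levels order the genes only roughly.

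Esam was then set against 32 markers of endothelial cells, all of which were expressed above the filter, among them the receptors Flt1, Kdr, Tek and Tie1 and the barrier transporters Slco1a4 and Mfsd2a. The geometric mean of the 32 markers was 278 ± 7.59 normalised reads for controls against 272 ± 24.6 for cKO. The value of Esam divided by this mean lay between 0.684 and 0.847 in the controls and between 1.67 and 2.36 in the cKO. Divided by Cdh5, Esam lay between 0.751 and 0.984 in the controls and between 1.78 and 2.62 in the cKO. Divided by Pecam1 it lay between 0.660 and 0.954 in the controls and between 1.48 and 2.29 in the cKO. In each of these 3 ratios the groups of libraries stood apart. The same was true of Esam over Cldn5, at 0.411 to 0.720 in the controls and 1.13 to 2.09 in the cKO. These ratios use the contrast for which Esam was chosen and are given without a test.

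**Figure D3:**
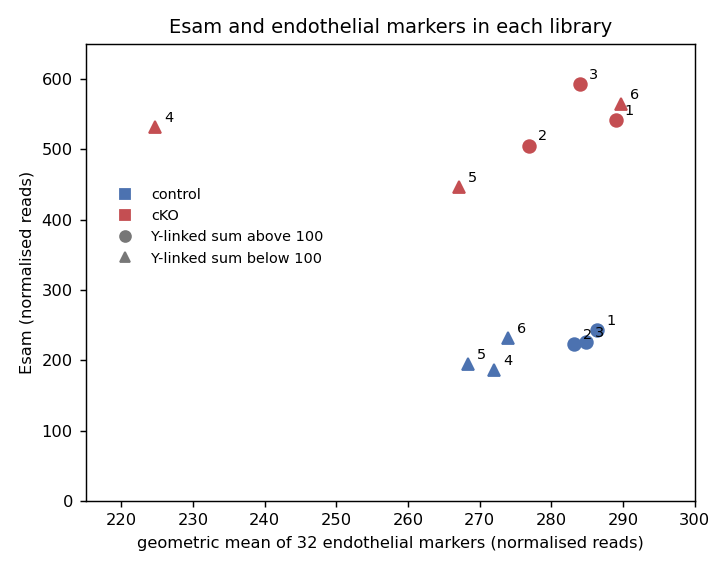
Esam against the geometric mean of 32 endothelial markers in each library, both in normalised reads, with library numbers beside the points. Control and cKO libraries cover much the same range on the x axis, apart from cKO library 4 at 225, and lie at separate heights for Esam.

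Library cKO 4 had the lowest endothelial mean, 225 normalised reads against 267 to 290 in the other 11 libraries. Icam2 was also lowest there, at 8.30, as were Cldn5 at 254, Cdh5 at 203 and Pecam1 at 235. Esam, at 531 in that library, lay near the middle of its genotype. The ratio of Esam to the endothelial mean was therefore the highest of all in cKO 4, at 2.36, and without that library the range in the cKO was 1.67 to 2.09.

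Whether the members varied together with the endothelial markers inside each genotype does not use the difference between genotypes. It was tested on deviations from the genotype means over the 12 libraries (permutation within genotypes, two-sided, adjusted over the 9 genes), without the term for the sets. The closest relation was that of Icam2 (Pearson r = 0.82, permutation p = 0.0287, adjusted p = 0.106; Spearman rho = 0.71, permutation p = 0.00978, adjusted p = 0.088). Cdh5 had r = 0.64 (permutation p = 0.016, adjusted p = 0.106) with rho = 0.50 (permutation p = 0.0846, adjusted p = 0.168). Cldn5 had r = 0.55 (permutation p = 0.0354, adjusted p = 0.106) with rho = 0.52 (permutation p = 0.0933, adjusted p = 0.168), and Esam had r = 0.32 (permutation p = 0.332, adjusted p = 0.411) with rho = 0.57 (permutation p = 0.0502, adjusted p = 0.151). None of the 9 passed the adjustment, and 3 had an unadjusted permutation p under 0.05 for r. Tjp1 went the other way, with r = -0.29 (permutation p = 0.103, adjusted p = 0.233) and rho = -0.57 (permutation p = 0.0285, adjusted p = 0.128). Ocln also had a negative r, at -0.31 (permutation p = 0.336, adjusted p = 0.411). The genotypes, of 6 libraries each, were not alike in r, which was not tested for each alone. In controls and cKO, r was 0.77 and 0.25 for Esam, 0.37 and 0.95 for Icam2, 0.72 and 0.77 for Cdh5, and 0.75 and 0.59 for Cldn5. It changed sign for Jam2 (-0.75 and 0.33) and F11r (-0.59 and 0.74). Cdh5, Cldn5, Icam2 and Esam were read again without cKO 4 and control 5, the 2 libraries farthest from the median of the markers. The r was then 0.35 for Icam2, 0.27 for Cdh5, 0.31 for Cldn5 and 0.62 for Esam. Leaving out the extremes narrows the range of the markers, which by itself can lower r. These values therefore cannot show whether the relations rested on those libraries.

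The endothelial markers deviated from the genotype mean to above 0 in 6 of 6 Y-high libraries and in 1 of 6 Y-low libraries. With deviations taken from the means of genotype and set together, a choice made after the data had been seen, r was 0.76 for Icam2 (permutation p = 0.0327, adjusted p = 0.294), 0.47 for Cdh5 (permutation p = 0.25, adjusted p = 0.501), 0.19 for Cldn5 (permutation p = 0.344, adjusted p = 0.501) and 0.10 for Esam (permutation p = 0.855, adjusted p = 0.855). None of the 9 passed, and 1 had an unadjusted permutation p under 0.05 for r. Tjp1 had rho = -0.57 (permutation p = 0.0442, adjusted p = 0.265). With these deviations the r of Icam2 was 0.95 in the Y-low set, which holds library cKO 4, and 0.087 in the Y-high set. Within genotypes alone, 4 relations passed when 1 library was left out. They were Esam without cKO 4 (r = 0.82, permutation, adjusted p = 0.049), Icam2 without control 2 (r = 0.93, permutation, adjusted p = 0.0478), and Cldn5 and Cdh5 without cKO 6 (r = 0.69 and 0.73, both with a permutation adjusted p of 0.0307). None of these passed within genotype and set, where the permutation adjusted p was 0.443 for Esam, 0.506 for Icam2, 0.881 for Cldn5 and 0.801 for Cdh5 with the same library left out.

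No interaction of genotype with the set of libraries was called for any of the 9 genes (limma interaction, adjusted p from 0.581 to 0.973, none with an unadjusted p under 0.05), and 0% of all tested genes were called in that comparison. For Esam the difference of the 2 log2 fold changes was -0.09 (SE 0.18). The sets themselves differed most in Cldn5. Its level was 431 ± 70.7 normalised reads in the 6 Y-high libraries and 290 ± 30.3 in the 6 Y-low libraries (SD), a log2 difference of 0.56 (SE 0.11, limma adjusted p = 0.0958, unadjusted p = 0.000113). The 2 sets did not overlap for Cldn5, but only narrowly, with 341.4 as the lowest value in the first and 340.6 as the highest in the second. Icam2 differed by 0.49 (SE 0.28, limma adjusted p = 0.495) and Cdh5 by 0.23 (SE 0.09, limma adjusted p = 0.384, unadjusted p = 0.0254). Pecam1 differed by 0.15 (SE 0.10, limma adjusted p = 0.522) and Esam by 0.14 (SE 0.09, limma adjusted p = 0.537), and the other 4 by -0.15 to -0.03. None of the 9 was called, and 2 had an unadjusted p under 0.05, in this comparison, in which 0.0764% of tested genes were. Cldn5 was called without control 1 (limma adjusted p = 0.0229) and after a trend with transcript length had been removed (0.0167). Without control libraries 4 and 5 its limma adjusted p was 0.754, but the log2 difference was 0.53, close to that with all libraries. The cause of the difference between the sets was not tested.

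The wider set of junction genes was taken from 5 lists that did not include the 9 members. Of 63 such genes in the table, 45 passed the filter and none was called by limma or edgeR, where limma called 0.834% of all tested genes. An unadjusted limma p under 0.05 was found for 3 of the 45, against 9.73% of all tested genes. The median log2 fold change of the 45 was 0.04, and 31 of 45 lay above 0. For all tested genes the median was -0.00069, with 49.9% above 0. In the family of ESAM itself 5 genes were tested, with a median of 0.01 and 0 called. Jam3, whose product JAM-C binds JAM-B, averaged 462 ± 50.4 normalised reads (controls) and 440 ± 29.2 (cKO), and Igsf11 598 ± 40.2 and 604 ± 47.0. Igsf5, the gene of JAM4, had 1573 ± 257 and 1497 ± 458. Jam3 shares 1159 exon bases with the antisense gene Gm48796, from whose reads it cannot be told apart if counting ignored the strand. The scaffolds of tight junctions had 14 tested genes, a median of 0.06 and 0 called. They include Magi1, whose PDZ protein is known to bind the cytoplasmic end of ESAM, with 1898 ± 298 normalised reads in controls against 2019 ± 222 in cKO (limma log2 fold change 0.10, adjusted p = 0.712). The adherens junction list had 10 tested genes with a median of 0.04, among them Ctnnb1, the gene of beta-catenin, whose log2 fold change was 0.04 (limma, adjusted p = 0.838). The list of leukocyte adhesion molecules had 8 tested genes with a median of 0.12, among them Alcam, with 2617 ± 346 and 2925 ± 329 normalised reads (limma adjusted p = 0.560), and Cd34, with 1254 ± 154 and 1407 ± 154 (limma adjusted p = 0.544).

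Of 21 claudins and related tetraspan or LSR proteins, 8 passed the filter, with a median log2 fold change of 0.0045. Cldn11, the claudin of myelin, was the most abundant of them with 2567 ± 410 normalised reads in controls against 2609 ± 347 in cKO, followed by Cldn12 with 897 ± 67.7 and 887 ± 61.9. Cldn10 averaged 464 ± 111 and 357 ± 76.3 (limma log2 fold change -0.37, SE 0.17, adjusted p = 0.5). Cldn22 was the only gene of the 45 tested in the 5 junction lists whose groups of libraries did not overlap, against 1.01% of all tested genes. It is named for that reason, after its values had been seen. Controls ranged from 5.28 to 18.1 normalised reads and cKO libraries from 21.8 to 33.3, with means of 12.8 ± 4.62 and 27.5 ± 4.99 (limma log2 fold change 1.12, SE 0.26, adjusted p = 0.0612). The authors' deposited table gives it a log2 fold change of 1.10 and an adjusted p of 0.0222. It was called by DESeq2 (adjusted p = 0.012) and by limma without control 3 (adjusted p = 0.0286), but not by edgeR. In the GENCODE annotation Cldn22 shares 995 exon bases with Wwc2 on the opposite strand, and without counting by strand their reads cannot be told apart. Wwc2 averaged 1178 normalised reads among controls and 1190 among cKO (limma adjusted p = 0.943).

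None of the 32 endothelial markers was called by limma, edgeR or DESeq2, where limma called 0.834% of all tested genes. An unadjusted limma p under 0.05 was found for 4 of the 32, against 9.73% of all tested genes. The median log2 fold change of the 32 was -0.03, with 12 of 32 above 0. The list summed to between 12768 and 14124 normalised reads per control library and between 12048 and 14073 per cKO library. The most abundant was Slc2a1, the glucose transporter of the barrier, with 2369 ± 498 in controls against 2659 ± 322 in cKO (limma adjusted p = 0.586), and the receptor Flt1 had 856 ± 147 and 845 ± 74.4. Foxq1, a transcription factor of brain endothelium, was the single marker of the 32 whose groups did not overlap, against 1.01% of all tested genes. It was named after its values had been seen. It was at 72.2 ± 8.31 in controls against 55.04 ± 2.22 in cKO (limma adjusted p = 0.265). It shares 3200 exon bases with A530084C06Rik on the opposite strand, and without counting by strand their reads cannot be told apart. Markers of pericytes and smooth muscle had a median of -0.11 over 11 tested genes and 0 called, and summed to 2546 to 3623 normalised reads per control and 2600 to 3091 per cKO library. That median was 0.11 without control libraries 4 and 5. Fibroblast markers of the meninges and vessel walls had a median of -0.03 over 10 tested genes and 0 called.

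Platelets and megakaryocytes, which also carry ESAM, were represented by 9 markers, of which 4 passed the filter and 0 were called. Of all tested genes limma called 0.834%. Itga2b, the platelet integrin chain, ranged from 21.3 to 44.7 normalised reads among controls and from 19.6 to 36.1 among cKO libraries. Pf4, a chemokine of platelet granules, averaged 14.4 ± 10.2 in controls against 9.09 ± 3.54 in cKO. Gp1ba was at 0 in all 12 libraries. Gp6 was at 0 in all controls and at most at 0.757 normalised reads in the cKO, and Gp1bb, the most abundant, shares 1902 exon bases with Sept5 on the same strand, so that their reads cannot be told apart. The list summed to 4070 to 5118 normalised reads per control and 4198 to 4542 per cKO library, nearly all of it from Gp1bb. Erythroid markers, a sign of blood in the tissue, had a median log2 fold change of -0.69 over 5 tested genes, with 0 called. Of the 5, 4 had an unadjusted limma p under 0.05, against 9.73% of all tested genes. The remaining marker, not a globin, had a log2 fold change of -0.15 (limma unadjusted p = 0.49). All 4 were globin genes, which share the blood in the tissue as their source, so they are not 4 separate results. Hbb-b1, the most abundant of these globins, had 1446 ± 862 normalised reads in controls against 796 ± 222 in cKO (limma adjusted p = 0.476), and Hba-a1 237 ± 44.7 against 151 ± 53.7 (limma adjusted p = 0.238). The erythroid markers summed to 1016 to 3586 normalised reads per control and 858 to 1740 per cKO library, and their part in the values of the junction genes was not tested. The median was -0.29 without control libraries 4 and 5.

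The median log2 fold change of microglia and macrophage markers was 0.03 with 0 of 9 called, oligodendrocyte markers -0.0066 with 0 of 8 called, neuron markers 0.12 with 0 of 8 called, and those of choroid plexus and ependyma -0.14 with 0 of 5 called. Limma called 0.834% of all tested genes, and at that share counts of 0 are not particular to these lists. Neuron markers, read as a check of the labelled tissue, summed to between 171653 and 185177 normalised reads in each of the 12 libraries. Of the 8 astrocyte markers, whose median was 0.04, only Aqp4 was called. The log2 fold changes of the 8 ran from -0.33 to 0.53, with 5 above 0. For 3 of the 8 the unadjusted limma p was under 0.05, in both directions, against 9.73% of all tested genes. Aqp4 encodes the water channel of the astrocyte endfeet that surround brain vessels, and it rose from 2109 ± 297 to 3035 ± 284 normalised reads (limma log2 fold change 0.53, SE 0.10, adjusted p = 0.00973).

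Esam lies on mouse chromosome 9 beside other genes of vessels and of immunoglobulin adhesion proteins, and the 3 nearest genes on each side that could be matched to the table were read for comparison. Robo4, an endothelial receptor of the roundabout family, had 103 ± 11.2 normalised reads in controls against 114 ± 15.0 in cKO (limma log2 fold change 0.14, adjusted p = 0.624). Robo3 had 119 ± 16.5 and 146 ± 42.1, and Hepacam, an adhesion protein of glia, 1760 ± 221 and 1664 ± 226. On the other side Vsig2, another immunoglobulin protein and the nearest gene, had 18.5 ± 5.71 and 26.4 ± 8.12 (limma log2 fold change 0.49, SE 0.25, adjusted p = 0.524). Nrgn, the neuronal protein neurogranin, had 22704 ± 3409 and 23058 ± 3493, and Spa17 had 17.0 ± 4.89 and 10.6 ± 3.59 (limma log2 fold change -0.65, adjusted p = 0.476). None of the 6 neighbours was called, against 0.834% of all tested genes. The groups of libraries overlapped for each of them, as they did for all but 1.01% of tested genes.

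**Figure D4:**
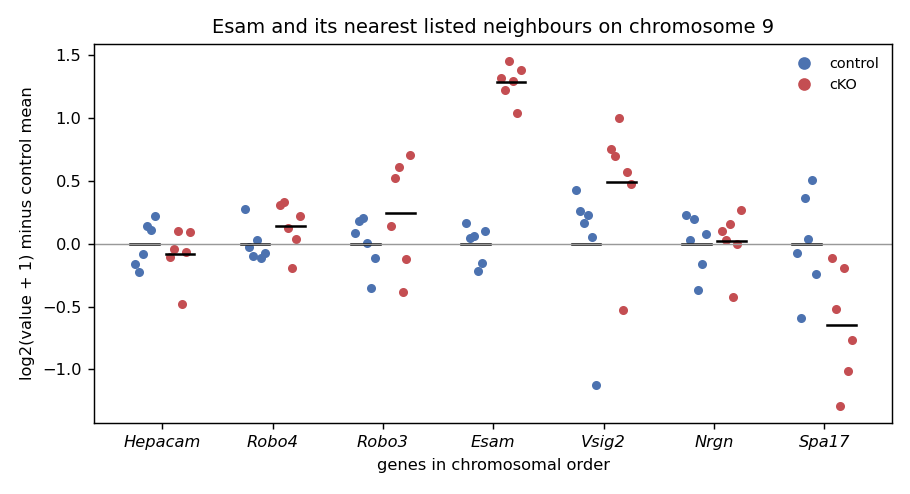
Esam and the 3 nearest genes of the table on each side, as log2(value + 1) minus the mean of the controls, 1 point per library (6 per genotype) and bars at the group means. The bar of Esam lies at 1.28 and those of the neighbours between -0.65 and 0.49, where the points of the genotypes overlap.

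Genes were ranked by how near their pattern over the 12 libraries was to that of Esam. The measure was the root mean square difference of log2(value + 1) relative to the control mean. The search covered 11509 genes averaging 50 normalised reads or more, without symbols of predicted models (Gm numbers, LOC or Rik). Stat6, a transcription factor of interleukin signalling, was nearest, at a difference of 0.12, with 212 ± 32.2 normalised reads in controls against 494 ± 42.2 in cKO. It was followed by Vill, a villin-like protein, at 0.17, with 61.8 ± 6.11 and 151 ± 8.11. Serpina3n, a protease inhibitor of reactive astrocytes among other cells, was the third, at 0.23, with 121 ± 25.4 and 277 ± 45.4. Cpxm2, of the carboxypeptidase family, and Eps8l2, a regulator of actin filaments, came next, at 0.25 and 0.26. None of these 5 belongs to the junction or endothelial lists used here, and since Esam was chosen for its difference between the genotypes, their likeness is a description.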

How the data were processed

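RNA-seq of 12 cortex samples was used, from libraries made of 250 ng total RNA with a directional kit, per the labels' protocols. Bowtie, STAR, bedtools, Trim Galore and the build mm9 are listed, with no version or role, per the submitters' processing notes. Strand use in counting is not given in the sources read. The values are counts normalised by the authors with DESeq2, per the file headers, a signal in units of scaled reads. Whole reads were recovered by dividing by each library's smallest step (100% of values above 0 came out whole, to within 0.01 reads), and 3 reads were worth 1.98 to 5.64 normalised reads. The authors' log2 fold change, standard error, score (Wald statistic), p-value and adjusted p-value are also deposited.

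Columns were assigned to genotypes by name. They were not tied to single samples because Y-linked reads disagree with the sex label of the same number, and the set term came from the summed value of 4 Y-linked genes above 100. log2(value + 1) of genes averaging 10 or more was fitted by limma (trend option) on genotype and set, with two-sided p-values adjusted by Benjamini-Hochberg. Fold changes on this scale understate those of low genes. The code was tested on simulated data. Permutation tests of correlations used 100000 draws. Chi-square per degree of freedom ran from 6.86 to 161 between replicates, above sampling noise.

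The members, 15 gene lists, alternatives and naming rule were chosen with earlier results of these data known. The rule named the 9 members, the 5 genes most like Esam, its 3 neighbours on each side and per list up to 3 genes, those called or else the most abundant. Pf4, Gp6, Gp1ba, Kdr, Tek, Tie1, Slco1a4 and Mfsd2a were named besides to say what a list holds. The comparison of the sets of libraries and the relation within genotype and set were added after the values had been seen. Exon lengths and overlaps came from GENCODE vM21 and gene order from RefSeq GRCm38.p6, matched by symbol, and coordinates are not printed because the builds differ. Alternatives were the pseudocount, filter, TMM or quantile scaling, edgeR, DESeq2, no set term, a replicate block, removal of libraries and removal of a length trend. Versions were R 4.3.3, limma 3.58.1, edgeR 4.0.16 and DESeq2 1.42.0.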

Additional observations from a re-analysis of the deposited data

Results flagged for a closer look

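Icam2 in the cKO had 1 library far from the others of its group. Library cKO 4 held 8.30 normalised reads, or 7 whole reads, and the next lowest cKO library 24.7, a gap of 0.654 of the range of the group, above the limit of 0.625 for 6 samples. In all 18 groups of 6 were examined, 9 genes in 2 genotypes, and chance gives about 1 such value in 20 groups. The same library had the lowest mean of the 32 endothelial markers, 225 normalised reads. The cause was not tested.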

How the results depend on the processing

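Under 24 alternatives Esam kept its direction, and the count of other members called stayed at 0. The number of genes called was 120, and 58 with a mean of at least 50, where fewer genes are tested and Icam2 is not. With single libraries left out it was 97 to 123. The uncalled estimates of some members crossed 0. With the length trend removed, the log2 fold change was 0.022 for Cldn5 and -0.019 for Pecam1, and with quantile normalisation the Cdh5 log2 fold change was 0.00717. With single libraries left out it ran from -0.070 to 0.085 for Jam2, -0.019 to 0.064 for Ocln, -0.072 to 0.014 for Cdh5, -0.053 to 0.037 for Pecam1 and -0.30 to 0.16 for Icam2. Cldn22 was the 1 gene called among claudins, and so among the 5 junction lists, with a pseudocount of 5 (limma adjusted p = 0.0434), quantile normalisation (0.0386), DESeq2 (0.012) and the length trend removed (0.0131). Leaving out single libraries gave 0 to 1 for both counts. The erythroid list had 1 gene called under the replicate block, Hbb-b2, and 0 to 1 without single libraries, where Hba-a1 was called without cKO 3. Without control libraries 4 and 5 the median log2 fold change was -0.29 for the erythroid list and 0.11 for pericyte and smooth muscle markers. Members differing between the sets of libraries numbered 1, Cldn5, with the length trend removed and 0 to 1 without single libraries. Members related to the endothelial markers numbered 0 to 2 without single libraries, and 0 with deviations taken within genotype and set. The causes were not tested beyond what each setting changes. Same-numbered libraries of the genotypes deviated together with correlations from 0.09 to 0.50, above 0.1 for 4 of 6 numbers. For 3 of 6 numbers each library was the best match of the other. These values do not settle whether the numbers mark pairs, and the main fit did not take them as pairs. With the replicate block 118 genes were called, and the Esam log2 fold change was 1.28. Icam2 had the fewest reads, 7 to 49 per library.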
